A study of Mus musculus with 4 samples.

Results

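The genes described here encode the subunits of the mitochondrial respiratory chain and ATP synthase. They were chosen by symbol: the subunit names of NADH dehydrogenase (Nduf and mt-Nd), succinate dehydrogenase (Sdh), cytochrome bc1 (Uqcr, Cyc1 and mt-Cytb), cytochrome c oxidase (Cox and mt-Co) and ATP synthase (Atp5 and mt-Atp), with at least 20 counts summed over the libraries. Of 35798 named genes, 115 had such a symbol and 95 reached that sum. Of the others, 12 were listed at 0 in every library and 8 lay between 0 and 20, the highest being Atp5pb-ps at 11.5 counts, while the lowest gene kept was Cox7a1 at 47. The 95 genes comprised 82 nuclear and 13 mitochondrial-genome genes, with 46 in complex I, 4 in complex II, 10 in complex III, 16 in complex IV and 19 in complex V. The nuclear symbols Ndufa12-ps and Ndufs5-ps name processed pseudogenes, which are intron-less copies of an mRNA, and Ndufb4c is annotated as one.

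The samples were Ly49H+ NK cells, the subset whose receptor recognizes an MCMV glycoprotein, from TNFR2 KO donors carrying CD45.2 and wild-type donors carrying CD45.1. Both were placed in the same NSG hosts, which lack T, B and NK cells of their own but keep myeloid cells, and the hosts were given MCMV the next day and their spleens taken on D3.5. Each genotype had 2 libraries, each from the pooled spleens of 3 mice, and same-numbered wild-type and TNFR2 KO libraries came from the same pool. The CD45 allele and the sort gate differed along with the genotype, so their effects cannot be told apart, and since it is one experiment in duplicate the p-values compare these pools and may measure technical spread only.

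Library totals ran from 32713256 to 39543650 counts. Values are given as CPM (counts scaled to library depth and by TMM, a factor per library that sets the bulk of genes equal), and log2-fold changes as TNFR2 KO over wild-type with their standard error (SE). Calls were made where the adjusted p of the edgeR quasi-likelihood test fell under 0.05, with Benjamini-Hochberg adjustment over the 13822 genes tested. For the targeted gene Tnfrsf1b, wild-type replicates gave 264.6 and 268.5 CPM and TNFR2 KO replicates 55.1 and 58.6 CPM (log2-fold change -2.23 ± 0.035, edgeR adjusted p = 1.35e-13). The libraries also differed in makeup. The NK lineage list (32 genes, none at 0) summed to 19076 and 18947 CPM in wild-type and 33971 and 33673 CPM in TNFR2 KO. In it, 29 genes were higher and 1 lower. The macrophage or monocyte list (20 genes, none at 0) summed to 2623 and 2597 against 1282 and 1260 CPM, with 18 genes lower and 2 higher. In bulk RNA, fewer cells of a type and less RNA per cell cannot be told apart.

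The respiratory chain sits in the inner mitochondrial membrane. Complexes I and II pass electrons from NADH and succinate to coenzyme Q, complex III passes them on to cytochrome c, complex IV reduces oxygen, and complex V uses the proton gradient made by complexes I, III and IV to synthesize ATP. Most subunits are encoded in the nucleus and imported, whereas a small core of membrane subunits of complexes I, III, IV and V is encoded by mitochondrial DNA, and complex II is wholly nuclear. In activated NK cells oxidative phosphorylation runs beside glycolysis and supplies energy for proliferation and effector function.

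Several of these genes have near-identical copies elsewhere in the nuclear genome, and reads from such a pair cannot be assigned to one of the 2 with certainty. The stretches below are shown because the values of these pairs, described further on, depend on that assignment. They are 60 bases of the transcripts on GRCm38 (GENCODE release M21), 5′ to 3′, with the bases that differ between gene and copy in capitals. The mitochondrial gene mt-Nd3 (chrM:9459-9806, plus strand) and its chromosome 1 copy Gm28438 (chr1:24612775-24613119) differ at 1 of 345 aligned bases, T3C counted from the start of the transcript. No base differed between mt-Co2 (chrM:7013-7696, plus strand) and Gm28661 (chr1:24614885-24615565) over 681 aligned bases. The processed pseudogenes Ndufa12-ps (chr5:130188395-130188796) and Ndufs5-ps (chr16:42955631-42955949) each differ from their parent gene at 2 bases, of 402 and 319 aligned, and Gm6969 (chr12:24638669-24639010) differs from Cox7a2l at 2 of 336, beside 1 gap.
mt-Nd3: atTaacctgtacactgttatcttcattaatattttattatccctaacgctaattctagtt
Gm28438: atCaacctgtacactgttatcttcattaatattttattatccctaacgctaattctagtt
mt-Co2 and Gm28661: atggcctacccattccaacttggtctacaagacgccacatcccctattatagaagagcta
Ndufa12: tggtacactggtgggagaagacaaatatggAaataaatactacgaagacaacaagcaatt
Ndufa12-ps: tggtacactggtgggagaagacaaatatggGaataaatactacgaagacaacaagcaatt
Ndufs5: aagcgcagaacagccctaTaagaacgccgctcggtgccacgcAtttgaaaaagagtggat
Ndufs5-ps: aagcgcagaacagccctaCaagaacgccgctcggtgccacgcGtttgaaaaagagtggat
Cox7a2l: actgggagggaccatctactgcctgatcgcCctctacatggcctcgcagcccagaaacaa
Gm6969: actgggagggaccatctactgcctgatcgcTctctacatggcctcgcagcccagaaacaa

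Across the respiratory chain, changes were small and went both ways. Of the 95 genes, all of which passed the filter on low counts, 27 were called higher in TNFR2 KO cells, 17 lower, and 51 were not called. That is 46.3% called, beside 50.4% of all genes tested, with 28.4% higher (24.2% of all genes) and 17.9% lower (26.2% of all genes). The median absolute log2-fold change was 0.11, against 0.22 over all genes. Only the pseudogenes Ndufa12-ps and Ndufs5-ps were called with an absolute log2-fold change over 1, both lower, where 13.3% of all genes passed that size, 1.56% higher and 11.8% lower. Both TNFR2 KO libraries lay above both wild-type libraries in 40 genes and below them in 24, where 36.4% and 37.7% of all genes did so. Of the 44 calls, 18 were lost when some 1 library was left out, and each of these is given with its value below. The nuclear and the mitochondrial genes split in opposite directions: 26 of 82 nuclear genes were higher and 10 lower, with a median log2-fold change of 0.04, while 1 of 13 mitochondrial genes was higher and 7 were lower, with a median of -0.14. Without wild-type replicate 2 the calls lower fell from 17 to 11 and the nuclear median was 0.08, and without TNFR2 KO replicate 2 the mitochondrial median was -0.05. With each copy's counts summed with those of its parent gene, the mitochondrial split became 2 higher and 4 lower, with a median of -0.03, and the nuclear split 27 higher and 8 lower of 79.

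The direction of these calls depended on how the libraries were scaled. Scaled by library size alone, 13 of the 95 were higher and 28 lower, and the nuclear median was -0.016. With only the genes at a mean of at least 10 CPM kept, 17 of 88 were higher and 20 lower, and in DESeq2 19 were higher and 10 lower. Scaling on the 32 NK lineage genes moved the median of all genes to -0.81, so that 0 of the 95 were called higher and 93 lower. A change of scaling adds nearly the same amount to every gene's log2-fold change, and 53 of the 95 lay above the median of all genes. Each direction below is relative to the bulk of genes, as TMM sets it.

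**Figure D1:**
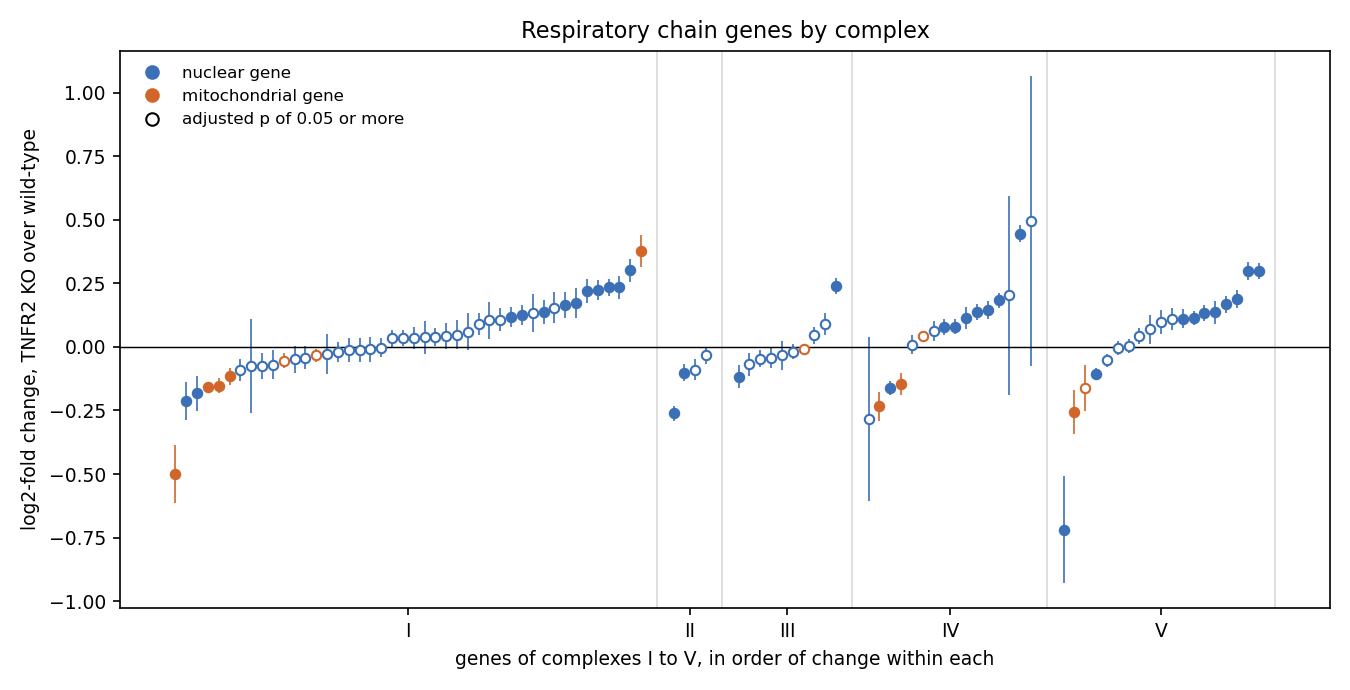
Log2-fold change of each respiratory chain gene (TNFR2 KO over wild-type, 2 libraries each, without the 2 pseudogenes), ordered within complexes I to V, with blue for nuclear and orange for mitochondrial genes, bars for the SE and open circles for genes that were not called. The 4 complex II genes lie below 0, most called nuclear genes of complexes IV and V lie above it, and no point passes 1 in either direction.

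**Figure D2:**
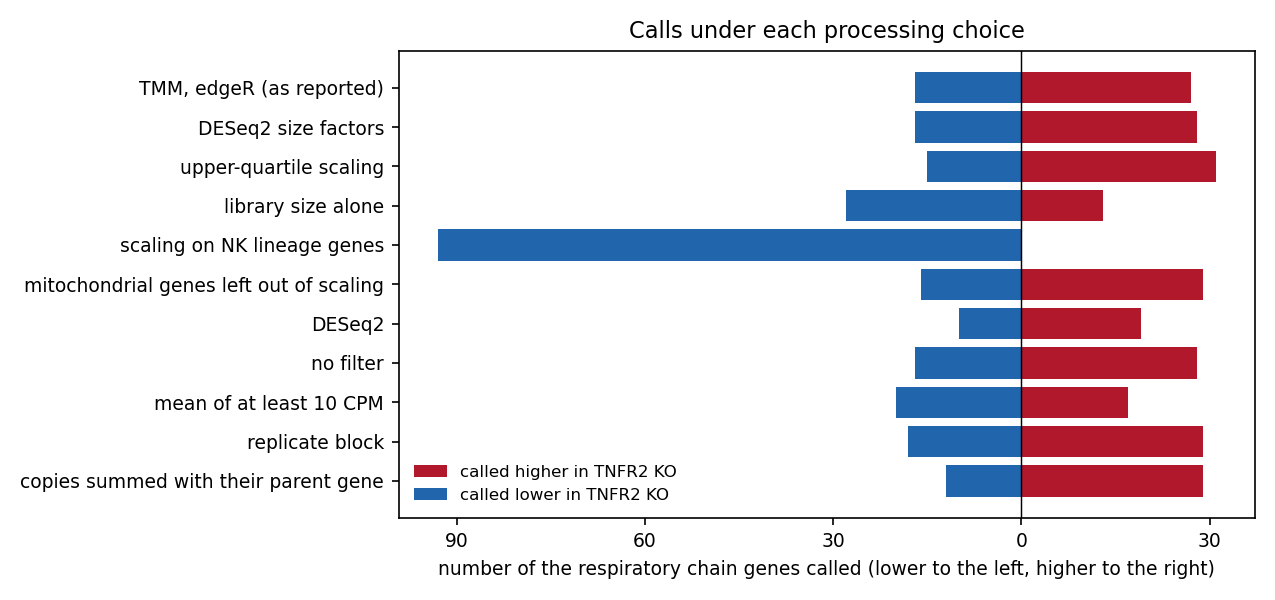
Number of the 95 respiratory chain genes called higher (to the right) or lower (to the left) in TNFR2 KO cells under each scaling, filter and test. The split runs from 31 higher and 15 lower with upper-quartile scaling to 0 higher and 93 lower when scaled on NK lineage genes.

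Complex II was the one complex in which all genes had lower levels in both TNFR2 KO libraries. Over all genes, 37.7% had both TNFR2 KO libraries below both wild-type libraries. Summed over the 4 genes of complex II, the level was 585.7 and 584.4 CPM in wild-type and 529.2 and 525.4 CPM in TNFR2 KO. Of the 4, 2 were called lower and 0 higher, beside 26.2% and 24.2% of all genes. Sdha (chr13:74322254-74350280, minus strand), the flavoprotein that oxidizes succinate and thereby links the chain to the TCA cycle, measured 251.7 and 252.6 CPM in wild-type and 213.9 and 206.6 CPM in TNFR2 KO. The groups did not overlap, and the log2-fold change was -0.26 ± 0.028 (edgeR adjusted p = 8.08e-06). Sdha remained called lower under every scaling, filter and test tried and with any 1 library left out. Sdhd, a membrane anchor, gave 113.5 and 115.1 against 107.6 and 105.5 CPM, a log2-fold change of -0.10 ± 0.033 (edgeR adjusted p = 0.0229). Its call was lost without wild-type replicate 1 (-0.10), wild-type replicate 2 (-0.08) or TNFR2 KO replicate 2 (-0.08), and in DESeq2. Sdhb, the iron-sulfur subunit, at -0.03, and Sdhc, the other membrane anchor, at -0.09, were not called.

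Complex I is the largest of the complexes, and its nuclear genes included 10 called higher (25.6%) and 4 called lower (10.3%) of 39, beside 24.2% and 26.2% of all genes. Without wild-type replicate 2 the split was 8 higher and 2 lower. Its 7 nuclear core subunits, which carry the NADH, flavin, iron-sulfur and quinone sites, were all without a call, at log2-fold changes from -0.07 to 0.04. The 30 others left without the -ps copies are accessory subunits surrounding that core, apart from Ndufa4 and the copy Ndufb4c. Ndufa4 was placed in complex I by its symbol alone. Of these 30, 10 were higher and 2 lower, at log2-fold changes from -0.21 to 0.30. The grouping into core and accessory subunits was added after the values were seen.

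Among the nuclear genes of complex I, the accessory subunit Ndufa2 had the largest rise, from 42.3 and 42.2 to 51.8 and 52.4 CPM, a log2-fold change of 0.30 ± 0.045 (edgeR adjusted p = 0.000131). Ndufa13, also known as GRIM-19, rose from 97.3 and 104.1 to 123.0 and 113.7 CPM, by 0.23 ± 0.045 (edgeR adjusted p = 0.000883). Neither gene's libraries overlapped between the groups, and both calls were kept under library size alone, in DESeq2 and with any 1 library left out. The other accessory genes called higher were Ndufb7, Ndufb11, Ndufa6, Ndufs6, Ndufa7, Ndufv3, Ndufb10 and Ndufb9, at log2-fold changes from 0.12 to 0.23. Among these, the calls of Ndufs6 (0.12) and Ndufa7 (0.13) were lost without wild-type replicate 1 and that of Ndufb10 (0.12) without wild-type replicate 2. The call of Ndufv3 was lost without wild-type replicate 1 (0.12) or TNFR2 KO replicate 1 (0.09), and that of Ndufb9 without wild-type replicate 1 (0.12), wild-type replicate 2 (0.13) or TNFR2 KO replicate 1 (0.10). Ndufa5 at -0.21 and Ndufc1 at -0.18 were called lower, with edgeR adjusted p of 0.0305 and 0.0423. Both calls were lost without wild-type replicate 2 (-0.16 and -0.14) or TNFR2 KO replicate 2 (-0.13 and -0.14), and that of Ndufc1 also without wild-type replicate 1 (-0.21). Under library size alone, 5 of the 39 nuclear genes were higher and 6 lower.

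In complex III, Uqcrh and Cyc1 moved in opposite directions. Both proteins sit where cytochrome c docks, Cyc1 as the heme-bearing cytochrome c1 and Uqcrh as the hinge protein bound to it. Uqcrh (chr4:116066965-116075071, minus strand) measured 110.0 and 112.0 CPM in wild-type and 132.6 and 129.5 CPM in TNFR2 KO (log2-fold change 0.24 ± 0.033, edgeR adjusted p = 5.73e-05). It was the single complex III gene called higher, and it stayed called with any 1 library left out. Cyc1 gave 105.6 and 117.0 against 102.1 and 103.0 CPM, a log2-fold change of -0.12 ± 0.045 (edgeR adjusted p = 0.0473). That call rested on wild-type replicate 2, without which the change was -0.03, and it was also lost without TNFR2 KO replicate 1 (-0.10). The remaining 7 nuclear genes and mt-Cytb, the cytochrome b of the complex, were not called. Among them Uqcrc2, a large matrix-facing subunit, measured 153.3 and 149.8 against 151.2 and 148.0 CPM.

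Of the 13 nuclear genes of complex IV, 7 were called higher and 1 lower, beside 24.2% and 26.2% of all genes, and their median log2-fold change was 0.11. Without wild-type replicate 1 the median was 0.07, with 4 higher, and with genes under 10 CPM left out it was 0.06, with 4 of 10 higher. Under library size alone 2 of the 13 were called higher and 1 lower. Their summed level was 1349 and 1369 CPM in wild-type and 1472 and 1448 CPM in TNFR2 KO. Cox7a2l (chr17:83501918-83517330, minus strand), placed in complex IV by its symbol, rose most among the called genes, from 116.8 and 122.8 to 162.2 and 164.0 CPM. The groups lay far apart relative to their spread, with a log2-fold change of 0.45 ± 0.033 (edgeR adjusted p = 2.81e-07), and 0.37 after its counts were summed with those of its copy Gm6969.

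Cox8a, one of the smallest structural subunits, rose from 183.7 and 191.4 to 210.5 and 215.6 CPM, by 0.18 ± 0.031 (edgeR adjusted p = 0.000306). Cox5a, the single nuclear gene of complex IV called lower, fell from 205.2 and 202.2 to 182.8 and 181.7 CPM, a log2-fold change of -0.16 ± 0.028 (edgeR adjusted p = 0.000403). Its partner Cox5b gave 195.6 and 200.9 against 213.4 and 205.3 CPM. The 2 genes thus moved in opposite directions, but the Cox5b call (0.08, edgeR adjusted p = 0.0471) was lost without wild-type replicate 1 (0.07) and without TNFR2 KO replicate 1 (0.06). Cox6b1, Cox6c and Cox7c were also higher, at 0.14, 0.15 and 0.11, as was Cox6a1 at 0.08, whose call was lost without wild-type replicate 1 (0.07) or TNFR2 KO replicate 2 (0.07). The call of Cox7c was lost without wild-type replicate 1 (0.11), wild-type replicate 2 (0.13) or TNFR2 KO replicate 1 (0.08). Cox7c also shares 14.0% of its 31-base stretches with the processed pseudogene Gm12338, under the 15% needed for the sums over copies. That copy was listed at 469.3 and 640.2 counts in wild-type and 665.5 and 285.1 in TNFR2 KO.

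Subunit isoforms typical of other tissues were close to absent in these cells. Cox6a2 and Cox7a1, the heart and muscle forms, measured at most 1.12 CPM and 0.439 CPM in any library, and Cox6b2, the testis form, at most 1.08 CPM. None of them was called. Cox7b2, Cox8b and Cox8c were listed at 0 in every library, and Ndufa4l2, an isoform induced by low oxygen, had 1 count in all. Their broadly expressed partners Cox6a1, Cox6b1, Cox7a2 and Ndufa4 lay between 87.7 and 181.0 CPM in every library. Of these, Cox7a2 (0.01) and Ndufa4 (0.04) were not called.

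Among the 17 nuclear genes of complex V, 8 were called higher (47.1%) and 2 lower (11.8%), beside 24.2% and 26.2% of all genes, and the median log2-fold change was 0.11. Under library size alone 4 were called higher and 3 lower, and with genes under 10 CPM left out the median was 0.07. Atp5b (chr10:128083273-128090391, plus strand), the catalytic beta subunit and the nuclear gene with the highest level per kilobase of transcript (527 CPM per kb in wild-type), fell from 1013 and 1006 to 931.6 and 945.6 CPM. Its groups did not overlap, and the log2-fold change was -0.11 ± 0.022 (edgeR adjusted p = 0.00163). Atp5a1, the alpha subunit that alternates with it in the F1 head, gave 381.4 and 386.9 against 367.9 and 373.0 CPM and was not called (-0.05).

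The largest rises of complex V were in subunits of its stalks. Atp5h (chr11:115415689-115419962, minus strand), the d subunit of the peripheral stalk, rose from 148.7 and 155.4 to 189.2 and 185.3 CPM, a log2-fold change of 0.30 ± 0.032 (edgeR adjusted p = 6.31e-06). Atp5e, the epsilon subunit of the central stalk, rose from 91.2 and 91.8 to 110.6 and 114.8 CPM, by 0.30 ± 0.035 (edgeR adjusted p = 1.64e-05). Both calls were kept under library size alone, in DESeq2 and with any 1 library left out. The gamma subunit Atp5c1, the delta subunit Atp5d, and Atp5j, Atp5j2 and Atp5l were higher by 0.11 to 0.19. Of these, the call of Atp5d was lost without wild-type replicate 1 (0.08) or TNFR2 KO replicate 2 (0.08).

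The membrane ring that turns with the proton flow is built of a c subunit that 3 genes encode as the same mature protein. Atp5g3 was the most abundant of them, at 221.3 and 219.8 CPM in wild-type and 218.0 and 221.5 CPM in TNFR2 KO, with no call. Atp5g1 gave 57.8 and 58.0 against 61.7 and 65.6 CPM, a call at 0.14 (edgeR adjusted p = 0.0228) that was lost without wild-type replicate 1 (0.14) or TNFR2 KO replicate 2 (0.10). It shares 7.2% of its 31-base stretches with the processed pseudogene Gm10039, under the 15% needed for the sums over copies. Gm10039 went the other way, at 839.4 and 935.3 counts in wild-type and 252.3 and 174.1 in TNFR2 KO. Atp5g1 itself had 2192 and 2139 against 2388 and 2104 counts, so its direction depends on how reads were assigned. Atp5g2 was listed at 4.51 and 6.67 against 3.85 and 2.90 CPM, a call at -0.72 (edgeR adjusted p = 0.0128) that was lost without wild-type replicate 2 (-0.40). Its transcripts share 37.5% of their 31-base stretches with Gm10175, a copy on chromosome 7 that matches it at all 645 aligned bases and was listed at 140.0, 140.4, 144.5 and 147.0 CPM. Summed with that copy, Atp5g2 changed by 0.03 and was not called.

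The 13 mitochondrial genes are transcribed together from the mitochondrial genome as long precursors that are cut into single mRNAs. They held 1.98% and 1.99% of all counts in the wild-type libraries and 1.85% and 1.83% in the TNFR2 KO libraries. As a share of the counts of all 95 genes, this was 71.0% and 70.9% in wild-type and 69.7% and 69.6% in TNFR2 KO. The 2 groups did not overlap and differed by -1.29 percentage points, and the exact two-sided permutation p was 0.333, the smallest that 2 libraries against 2 allow. When counts on the chromosome 1 copies were added, the shares were 75.3%, 74.8%, 74.8% and 74.3%, so that the groups overlapped, and the difference was -0.47 percentage points.

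Per kilobase, mt-Co1 had the highest level (5037 CPM per kb in wild-type) and mt-Nd6 the lowest (23.1 CPM per kb). The catalytic oxidase subunit mt-Co1 measured 7878 and 7687 CPM in wild-type and 8020 and 8004 CPM in TNFR2 KO. It was not called (0.04, edgeR adjusted p = 0.0586), but it was called with the pools as a block (0.04, edgeR adjusted p = 0.047). Upper-quartile scaling, scaling without mitochondrial genes and the DESeq2 test also called mt-Co1 higher. Library size alone, DESeq2 size factors and the other filters on low counts left it without a call, and scaling on NK lineage genes called it lower. Its call also varied with the library left out. The other mitochondrial genes without a call were mt-Cytb at -0.01, mt-Nd4 at -0.03, mt-Nd5 at -0.05 and mt-Atp8 at -0.16. With the block, mt-Atp8 was called lower (-0.18, edgeR adjusted p = 0.0071), and this gene rested on TNFR2 KO replicate 2, which at 380.4 CPM stood below the other libraries at 494.3 to 509.1 CPM and without which the change was 0.04.

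The complex I subunit mt-Nd1 (chrM:2751-3707, plus strand) shares no 31-base stretch with another annotated gene. It fell from 1577 and 1565 to 1428 and 1389 CPM, a log2-fold change of -0.16 ± 0.022 (edgeR adjusted p = 6.7e-05). Next to it, mt-Nd2 (chrM:3914-4951, plus strand) fell from 863.2 and 834.0 to 787.6 and 739.6 CPM, by -0.15 ± 0.031 (edgeR adjusted p = 0.0013). Both calls were kept with any 1 library left out. The gene mt-Nd6 (chrM:13552-14070), the one member on the minus strand, fell from 11.8 and 12.1 to 9.25 and 7.64 CPM, by -0.50 ± 0.12 (edgeR adjusted p = 0.00323). It overlaps the end of mt-Nd5 on the other strand, and the sources used here do not say whether the counting used strand. The gene mt-Nd4l gave 256.7 and 256.5 against 245.2 and 228.2 CPM, a call at -0.12 (edgeR adjusted p = 0.0127) that was lost without TNFR2 KO replicate 2 (-0.06), and its chromosome 1 copy Gm10222 was listed at 0 in every library.

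**Figure D3:**
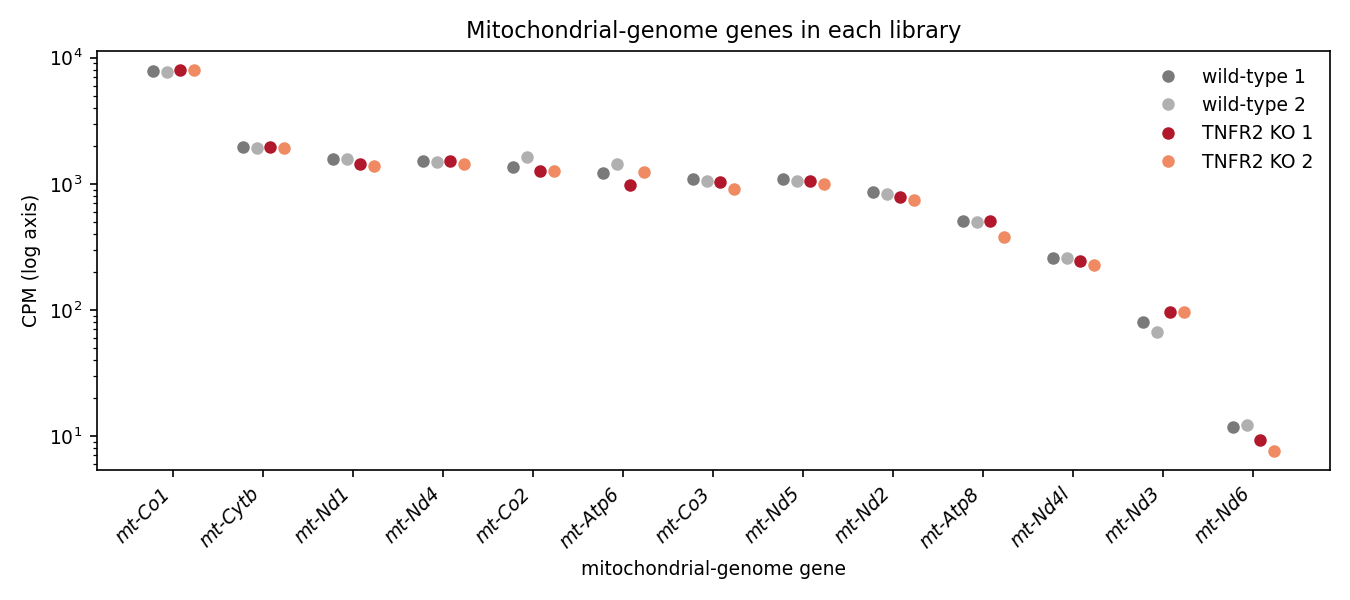
Level of each of the 13 mitochondrial-genome genes in each library (CPM on a log axis), with grey for wild-type and red or orange for TNFR2 KO. For mt-Nd1, mt-Nd2 and mt-Nd6 both TNFR2 KO libraries lie below both wild-type libraries, for mt-Atp6 the groups overlap, and mt-Nd3 is the called gene that lies higher.

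The other 4 mitochondrial calls changed when copies were counted with their gene. A run of chromosome 1 (chr1:24611535-24616197) holds nuclear copies of mt-Co1 to mt-Nd4, and of the 31-base stretches of mt-Co2, mt-Atp6, mt-Co3 and mt-Nd3 at least 98.1% occur elsewhere among annotated genes. As listed, mt-Co2, which receives electrons from cytochrome c, measured 1360 and 1620 against 1261 and 1272 CPM, a log2-fold change of -0.23 ± 0.056 (edgeR adjusted p = 0.00425). Its identical copy Gm28661 went the other way, at 1338 and 1045 against 1465 and 1364 CPM (0.25). The 2 wild-type libraries differed from each other in opposite directions for gene and copy, and summed over both the change was 0.00 with no call.

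The proton channel subunit mt-Atp6 was listed at 1213 and 1429 against 981.9 and 1233 CPM, groups that overlap, with a log2-fold change of -0.26 ± 0.086 (edgeR adjusted p = 0.0272). This call was lost without wild-type replicate 2 (-0.12), and summed with its copy Gm10925 the change was 0.003. The structural subunit mt-Co3 was listed at 1086 and 1060 against 1029 and 910.7 CPM, a log2-fold change of -0.14 ± 0.043 (edgeR adjusted p = 0.014), which lost its call without TNFR2 KO replicate 2 (-0.06). Summed with Gm28437 it reversed to 0.055 and was called higher (edgeR adjusted p = 0.033). For mt-Co2, mt-Atp6 and mt-Co3 the calls were also lost in DESeq2.

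The gene mt-Nd3 was the 1 mitochondrial gene called higher, at 80.5 and 67.4 against 96.4 and 95.9 CPM, a log2-fold change of 0.38 ± 0.063 (edgeR adjusted p = 0.000318). Its copy Gm28438, which carries the T3C difference shown above, was listed at 126.7 and 138.5 against 123.5 and 96.6 CPM and called lower (-0.26). Summed over both, the change was -0.0001 and no call remained. After copies were summed, the mitochondrial genes called were mt-Nd1, mt-Nd2, mt-Nd4l and mt-Nd6 as lower and mt-Co1 and mt-Co3 as higher, with mt-Co1 at 0.055 (edgeR adjusted p = 0.0093).

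**Figure D4:**
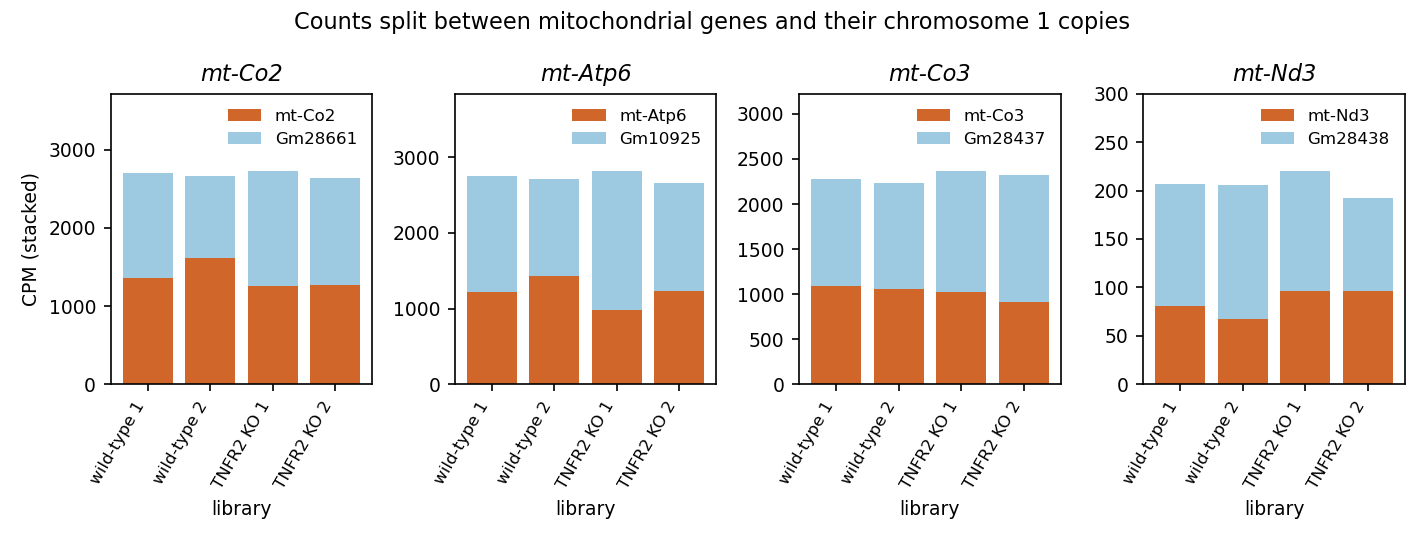
Stacked CPM of mt-Co2, mt-Atp6, mt-Co3 and mt-Nd3 (orange) and their chromosome 1 copies (blue) in each library. The boundary between gene and copy shifts from library to library, while the height of the stack for mt-Co2, mt-Atp6 and mt-Nd3 differs between the groups by a log2-fold change of at most 0.003.

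The processed pseudogenes had the largest changes among the nuclear symbols. Ndufa12-ps fell from 6.64 and 7.05 to 1.11 and 0.749 CPM, a log2-fold change of -2.86 ± 0.20 (edgeR adjusted p = 1.82e-07). Ndufs5-ps fell from 3.51 and 3.09 to 0.491 and 0.187 CPM, by -3.23 ± 0.35 (edgeR adjusted p = 7.64e-06). The genes they were copied from showed no such change. Ndufa12 gave 38.4 and 35.7 against 36.3 and 35.3 CPM, and Ndufs5 gave 26.3 and 28.4 against 30.4 and 26.5 CPM, neither called. Gm6969, the copy of Cox7a2l and not itself among the 95 genes, fell from 7.35 and 7.43 to 1.60 and 1.28 CPM (-2.35), while Cox7a2l rose. Summed with its copy, Ndufa12 was called lower at -0.26 (edgeR adjusted p = 0.0012), while Ndufs5 at -0.09 was not called. Ndufb4c, whose 31-base stretches all occur in other annotated genes, was not called either, at 18.9 and 20.96 against 20.4 and 18.6 CPM. Its parent Ndufb4 was listed at 3.98 and 5.80 against 4.83 and 4.43 CPM, and per kilobase in wild-type the copy was at 51.1 and the parent at 5.04 CPM per kb. Summed, the pair changed by -0.04 with no call.

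Marker lists of 4 other blood cell types were also lower in the TNFR2 KO libraries. The macrophage or monocyte list had a median log2-fold change of -2.87, and the neutrophil or granulocyte precursor list (15 of 15 lower) -2.29, with summed levels of 1022 and 1040 CPM in wild-type and 104.8 and 100.9 CPM in TNFR2 KO. The mast cell or basophil list (9 of 10 lower and 1 called higher, at 1.69) summed to 1269 and 1265 against 100.3 and 100.4 CPM. The erythroid list (10 of 10 lower) summed to 296.0 and 291.0 against 66.6 and 71.1 CPM. None of the genes in these 4 lists was at 0 in every library. The dendritic cell or class II list was lower in 6 of 11 genes and higher in Itgax, which NK cells also express (1.11), with sums of 2180 and 2207 against 1037 and 1062 CPM. The T cell list was lower in 6 and higher in 2 of 10 genes, with sums of 1367 and 1353 against 1264 and 1299 CPM, and the B cell list, with 2 of 7 genes tested, summed to 15.7 and 14.9 against 25.6 and 24.6 CPM. The part of these lists in the values of the pseudogenes and of the respiratory chain genes was not tested.

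**Figure D5:**
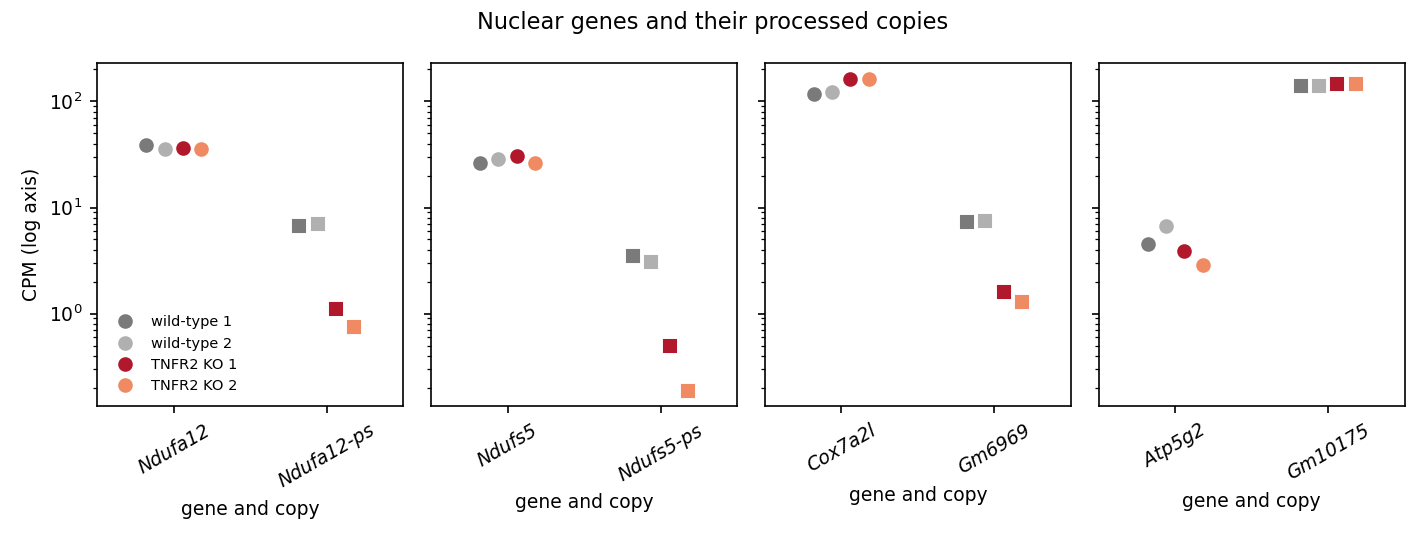
Level of Ndufa12, Ndufs5, Cox7a2l and Atp5g2 (circles) and of their processed copies (squares) in each library, in CPM on a log axis. Ndufa12-ps, Ndufs5-ps and Gm6969 are lower in both TNFR2 KO libraries than in both wild-type libraries, and Gm10175 lies between 140.0 and 147.0 CPM in all 4.

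Other genes of the pathway, which the symbol rule leaves out, also moved by small amounts in both directions. Over 4 lists, 13 were called higher and 15 lower, where 24.2% and 26.2% of all genes were. The share called was 31.1% of assembly factors, 27.3% of gene expression and biogenesis genes and 30.8% of coenzyme Q genes, beside 50.4% of all genes. All 4 tested subunits outside the rule were called. Of the 28 calls, 16 were lost when some 1 library was left out. Cox4i1, the ubiquitous form of a large complex IV subunit, rose from 246.8 and 250.6 to 287.4 and 288.4 CPM, by 0.21 ± 0.026 (edgeR adjusted p = 2.56e-05), like most nuclear complex IV genes. Cycs, the cytochrome c that carries electrons from complex III to IV, fell from 74.9 and 76.2 to 69.4 and 66.0 CPM, by -0.16 ± 0.041 (edgeR adjusted p = 0.00659). Its level depends on read assignment, since 26.2% of its 31-base stretches occur in Gm10053, which is annotated as protein-coding and was not summed with it. Gm10053 was listed at 3896 and 3849 counts in wild-type and 3542 and 3018 in TNFR2 KO. The acyl carrier protein Ndufab1 (-0.26) and the ATP synthase inhibitor Atpif1 (-0.24) were called lower as well.

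Among 45 assembly factors tested, 10 were higher (22.2%) and 4 lower (8.89%), a share of calls of 31.1% beside 50.4% of all genes. Surf1, which helps build complex IV, rose from 37.3 and 38.0 to 50.3 and 49.6 CPM, by 0.41 ± 0.047 (edgeR adjusted p = 1.38e-05). Ndufaf4, which helps build complex I, fell from 16.0 and 18.4 to 10.7 and 10.1 CPM, by -0.72 ± 0.098 (edgeR adjusted p = 5.65e-05). Of the complex IV assembly factors, Coa5 was lower at -0.34 and Coa6 higher at 0.35, a call lost without wild-type replicate 1 (0.23) or TNFR2 KO replicate 1 (0.29). No assembly factor of complex II was called lower, and Sdhaf2, which helps attach flavin to Sdha, was higher at 0.19 while Sdha was lower.

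The list of mitochondrial gene expression and biogenesis (22 genes tested) had 1 higher and 5 lower, 27.3% called and 22.7% lower, beside 50.4% and 26.2% of all genes. Pprc1 and Ppargc1b, coactivators of the PGC-1 family that drive nuclear genes of mitochondrial proteins, were lower. Pprc1 fell from 48.7 and 47.9 to 35.2 and 34.7 CPM, by -0.46 ± 0.048 (edgeR adjusted p = 5.09e-06), and Ppargc1b from 4.51 and 5.07 to 2.61 and 3.09 CPM, by -0.75 ± 0.17 (edgeR adjusted p = 0.00311). Their relative Ppargc1a was called higher at levels under 1 CPM in every library, and lost that call without wild-type replicate 1, wild-type replicate 2 or TNFR2 KO replicate 1. Lrpprc and Slirp, partners that stabilize mitochondrial mRNAs, were both lower at -0.25, the Slirp call being lost without wild-type replicate 1 (-0.24), wild-type replicate 2 (-0.25) or TNFR2 KO replicate 1 (-0.16). The nuclear factors Nrf1 and Gabpa and the mitochondrial factor Tfam were not called. In coenzyme Q synthesis, Coq2, Coq5 and Coq7 were lower and Coq10a higher of 13 genes (30.8% called), and of these only the call of Coq2 held with any 1 library left out, those of Coq5 and Coq10a being lost without any one of the 4 libraries and that of Coq7 without any one except TNFR2 KO replicate 1.

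Among the nuclear genes, shorter transcripts tended to have the higher log2-fold changes. Over the 80 nuclear genes without the 2 pseudogenes, the Spearman correlation of log2-fold change with transcript length (GENCODE release M21) was -0.27, beside -0.01 over 13331 genes with a length. Over the 56 of them at a mean of 50 CPM or more it was -0.35. The median transcript was 614.5 bases for the 26 genes called higher, 749 for the 8 called lower and 695 for the 46 without a call. These are correlations across genes of the same 4 libraries, genes are not independent replicates, and no p was computed.

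Promoters were read for the 66 of these 80 genes that RefSeq's table (GRCm38.p6) held, over the 250 bases before each transcript start and on both strands. The ETS core CCGGAAG, the site type of the factor Gabpa, was present in 18.2% of them and in 7.8% of all 27025 genes in the table. By call it was present in 8 of 23 genes higher, 1 of 7 lower and 3 of 36 without a call. The core of the palindrome of the factor Nrf1, CGCATGCG, was present in 10.6% and in 1.7% of all genes, and the YY1 motif AAGATGGCG in 1.5% and 0.7%. The ETS and YY1 letters can overlap at AAG. The 100 bases before the start are shown for Uqcrh, called higher (chr4:116075071-116075170, minus strand), and for Sdhd, called lower (chr9:50603850-50603949, minus strand), since both carry the ETS core, in capitals and read here on the opposite strand. A match of letters is a description of the sequence and does not show that a factor was bound.
Uqcrh: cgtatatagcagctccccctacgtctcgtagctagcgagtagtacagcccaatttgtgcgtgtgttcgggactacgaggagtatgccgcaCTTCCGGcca
Sdhd: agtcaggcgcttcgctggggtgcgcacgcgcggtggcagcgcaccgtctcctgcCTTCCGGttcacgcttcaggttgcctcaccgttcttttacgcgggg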

How the data were processed

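Sorted splenic Ly49H+ NK cells gave 4 poly-A, stranded libraries sequenced as paired 100-base reads. The authors trimmed reads with Trimmomatic, assigned them to mm10 with Kallisto (0.46.1 in the submitters' processing notes) and summed them with Tximport. They deposited estimated counts (expected counts) per gene symbol, unscaled. The sources used here do not give the transcript annotation. The unnamed row (0.056% to 0.073% of counts) was left out.

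Counts were rounded, TMM-scaled, filtered with filterByExpr and tested with edgeR 4.0.16 (R 4.3.3; quasi-likelihood, genotype only, Benjamini-Hochberg). On simulated counts for this comparison (13571 genes), these steps recovered 46% of genes changed by 0.25 on the log2 scale and 98% of those changed by 2, with 3 false calls. The simulation changed few genes, 50 at 0.25 and 50 at 2, up or down at random, whereas 50.4% of genes were called in the data. These rates therefore need not hold for the real comparison. Labels state that same-numbered libraries share a pool, so the numbers pair them, and the correlation of their deviations was 0.024 across genes. Replicates differed beyond sampling noise (mean chi-square 3.29 and 3.49 per gene).

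For the sums over copies, a copy was an annotated pseudogene with at least 20 counts that shared at least 15% of a gene's 31-base stretches (GENCODE release M21). Alternatives were other scalings, DESeq2 1.42.0, other filters, the block, each library left out and, chosen after seeing the data, copies summed. Named genes were all mitochondrial genes, in each complex the 2 most abundant nuclear genes and the 2 called with the largest change each way, calls with an absolute log2-fold change over 0.5, tissue isoforms and their partners, the c subunit genes, Cox4i1, Cycs, Tnfrsf1b and the copies. A gene that this rule names is not reported here. Other genes were named after their values were seen. Members and lists were chosen with earlier results of these data known.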

Additional observations from a re-analysis of the deposited data

How the results depend on the processing

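Scaled by library size alone, calls of the 95 genes were 13 higher and 28 lower, with 4 in complex II, 6 in complex III and 5 in complex IV, other pathway genes had 4 higher, and the nuclear median was -0.0158. Scaling on NK lineage genes gave 0 higher and 93 lower, with 46, 4, 10 and 19 calls in complexes I, II, III and V, and 0 higher and 83 lower among other pathway genes. A mean of at least 10 CPM gave 17 higher, and 7 higher among other pathway genes. DESeq2 gave 10 lower, 12, 1, 1 and 6 calls in complexes I to IV, and 3 higher and 9 lower among other pathway genes. Upper-quartile scaling, and scaling without mitochondrial genes, each gave 1 call in complex III. With copies summed, the mitochondrial median was -0.0335 and the share difference -0.47 percentage points. Without the copies, the difference of the mitochondrial genes as a share of all counts was -0.15 percentage points. The cause of these differences was not tested.

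With 1 library left out, calls ran from 20 to 30 higher and from 11 (without wild-type replicate 2) to 19 lower. Complexes II and III each had 1 to 2 calls, and complexes I, IV and V had 15 to 20, 8 to 10 and 9 to 12. Other pathway genes had 7 to 10 higher and 9 to 13 lower. The mitochondrial median ran from -0.159 to -0.0549 (without TNFR2 KO replicate 2), the nuclear median from 0.0355 to 0.0798, the share difference from -1.36 to -1.23 percentage points and Tnfrsf1b from -2.27 to -2.18.

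With the pools as a replicate block, calls were 29 higher and 18 lower, and among the genes named by rule mt-Co1 and mt-Atp8 were the ones whose call changed.

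Reversals of single genes were as follows. With copies summed, mt-Atp6 was at 0.00344, mt-Co3 at 0.055, mt-Nd3 at -7.9e-05 and Atp5g2 at 0.0322. With library size alone, mt-Co1 was at -0.0188, Cox7a2 at -0.0522 and Ndufa4 at -0.0197. With upper-quartile scaling, mt-Cytb was at 0.00296 and Atp5g3 at 0.00368, with 10 CPM Cox7a2 at -0.0276, and with no filter Atp5g3 at 0.000211. With 1 library left out, the values of the genes that changed sign ran from -0.379 to 0.0356 for mt-Atp8, -0.00727 to 0.0118 for mt-Cytb, -0.0602 to 0.00756 for mt-Nd4, -0.0504 to 3.04e-05 for Sdhb, -0.0265 to 0.00661 for Uqcrc2, -0.135 to 0.665 for Cox6a2, -0.0117 to 0.0416 for Cox7a2 and -0.0117 to 0.0168 for Atp5g3. Of the other values of named genes under an alternative, 502 kept direction and call, 35 gained a call and 33 lost one. Depth limits the genes with the fewest counts, among them Ndufa12-ps, Ndufs5-ps, Ndufb4, Atp5g2 and the tissue isoforms.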
